A study of Saccharomyces cerevisiae with 12 samples.

Results

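Cells of Saccharomyces cerevisiae that lack ANC1 (TAF14) were compared with wildtype cells while both were under methyl methanesulfonate (MMS), an agent that methylates DNA bases and stalls replication forks. The comparison rests on 6 of the 12 Affymetrix YG-S98 arrays of the study, namely the 3 titled as treated wildtype and the 3 titled as treated anc1, and 6 arrays of the same strains without MMS served only to show where the strain difference changed. Both strains were of the BY4741 background (MATa, with his3, leu2, met15 and ura3 alleles), and anc1Δ cells carried in addition the deletion of ANC1, which the strain list gives as a URA3 cassette and the array methods as one for G418 resistance. The methods give 3 separate colonies per strain, grown in rich medium, but describe no MMS step for the arrays, so the dose, the duration and how the treated cultures derive from these colonies are not stated. The p-values measure the spread between these arrays, which may in part be technical. The source names of 3 treated wildtype arrays call them untreated, the descriptions of 3 anc1 arrays name wildtype, and the titles were followed throughout.

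Anc1 is a small protein with a YEATS domain that belongs to TFIID, TFIIF, SWI/SNF, RSC, INO80 and NuA3 and was also reported in Mediator, complexes through which RNA polymerase II starts transcription on chromatin. Cells under MMS switch on a damage program through the kinases Mec1, Rad53 and Dun1, which raises ribonucleotide reductase, the enzyme that makes deoxynucleotides. Stalled forks are restarted by postreplication repair, in which Rad6 and Rad18 modify the clamp PCNA and either specialized polymerases or a switch of template carry replication past the lesion.

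The measurements were RMA intensities, of which the log2 was fitted with limma. The comparison covered 9275 probe sets, of which 6504 named a single gene, and each of 5656 genes was read from its brightest probe set. To be called, a gene needed a change of at least 1.5-fold and a p under 0.05 after Benjamini-Hochberg adjustment. Under MMS the median probe set of a wildtype array read 114.7 to 119.8, and that of an anc1Δ array 105.9 to 107.9. Within a strain the treated arrays correlated across probe sets with r of at least 0.995, and between the strains with r from 0.95 to 0.966. Of the wildtype arrays, replicate 3 stood nearest to the anc1Δ arrays (r from 0.962 to 0.966). The ratio of 3′ to 5′ signal of the actin control, a measure of RNA integrity, lay between 3.31 and 3.85 in wildtype and between 3.43 and 3.998 in anc1Δ, so that the strains overlapped. That of the SRB4 control lay between 16.1 and 19.3 in wildtype and between 9.74 and 11.8 in anc1Δ, without overlap. The part of these differences in the results below was not tested.

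The titles were checked against genes known to respond to alkylation. All 11 measured marker genes were higher on every wildtype array titled treated than on every wildtype array titled untreated, by 1.93-fold to 7.93-fold. For MAG1, the glycosylase that removes methylated bases, the treated arrays read 491, 503 and 458 and the untreated ones 81.8, 93.5 and 69.9. With 3 arrays against 3 an exact two-sided permutation test cannot go below p = 0.1, which each of the 11 reached. The source names that call these arrays untreated thus go against their values.

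ANC1 itself, listed on the array as TAF14, read 193, 175 and 198 in wildtype under MMS and 8.37, 14.2 and 8.07 in anc1Δ. The anc1Δ values lay near the dimmest probe sets of the array, far from every wildtype value, and differed by -4.25 ± 0.19 on the log2 scale (SE, n = 3 per strain, adjusted p = 4.1e-07). Of the auxotrophic markers that both strains carry, none was called. URA3 read 7.84, 7.23 and 9.61 in wildtype and 9.66, 10.1 and 10.7 in anc1Δ, dim in both and under the fold limit. Which of the described cassettes the anc1Δ cells carried was not tested.

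Relative to wildtype under MMS, anc1Δ had 622 genes higher and 1042 lower, which is 11% and 18.4% of the 5656 genes tested. On the adjusted p alone 3638 genes passed. The values of the strains did not overlap for 1658 of the 1664 called genes, and for 72.0% of all genes. The median gene was lower in anc1Δ by 0.18 on the log2 scale, and higher genes made up 37.4% of the calls. With each array centred on its median the median difference was -0.05 and the higher genes made up 53.3% of the calls, so the balance between rises and falls depends on the scaling. Without MMS the same criteria gave 629 higher genes (11.1%) and 699 lower genes (12.4%).

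**Figure D1:**
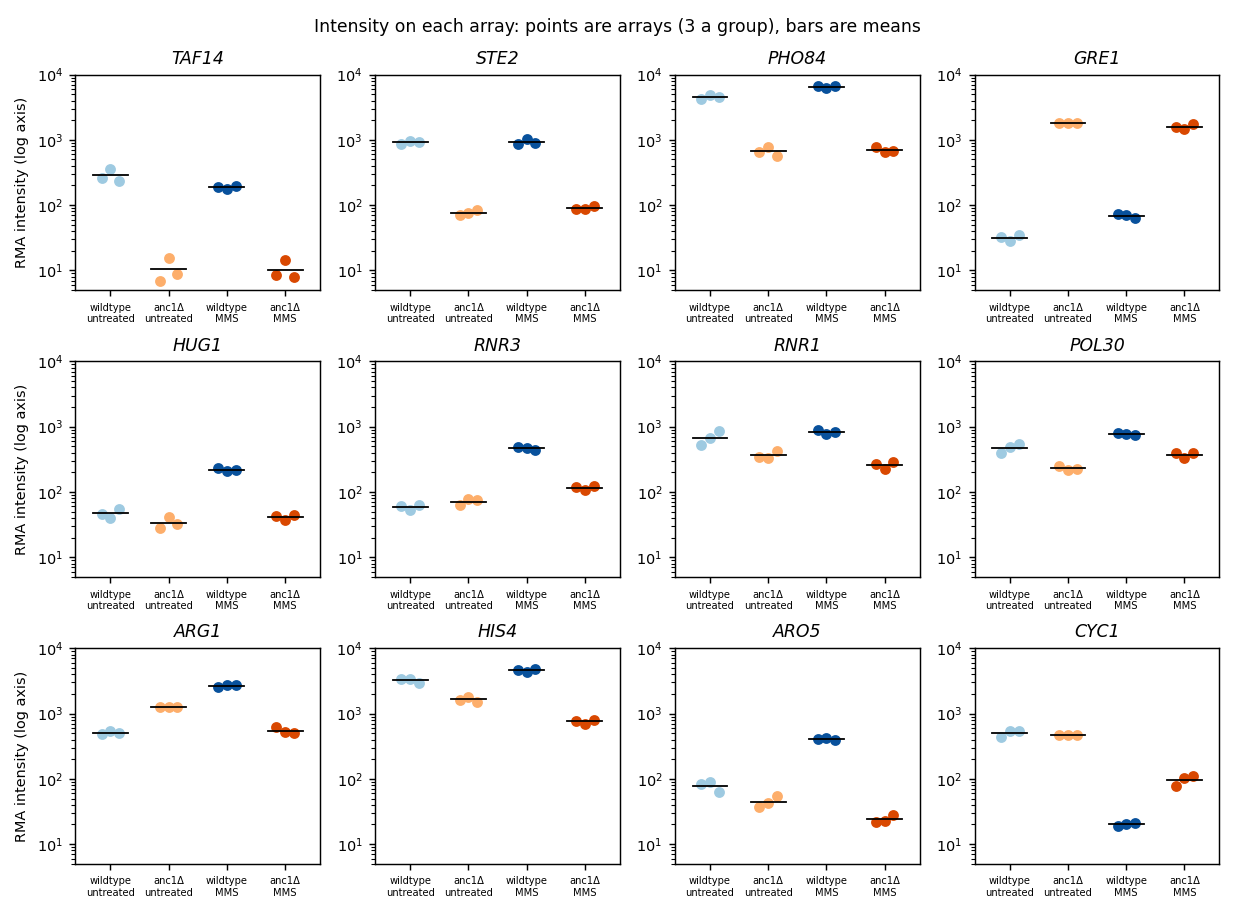
RMA intensity (log axis) of 12 genes on each of the 12 arrays, in 4 groups of 3 (wildtype and anc1Δ, untreated and with MMS). Points are arrays and bars are group means. STE2 and PHO84 are low in anc1Δ in both states, HUG1 and RNR3 are highest on the wildtype MMS arrays, and ARG1 is above wildtype in untreated anc1Δ and below it under MMS.

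Several genes of ribonucleotide reductase and its control, among them HUG1, RNR3 and RNR1, were lower in anc1Δ under MMS. Of 9 measured genes for ribonucleotide reductase and its regulators, 5 were lower in anc1Δ, none was higher, and the median difference was -0.64, against -0.18 over all genes. HUG1, a small inhibitor of the enzyme that is switched on by DNA damage, read 231, 212 and 220.3 in wildtype and 42.6, 36.6 and 44.9 in anc1Δ. The anc1Δ arrays under MMS stood at the level of untreated wildtype (45.9, 40.2 and 55.6), and no anc1Δ array came near a treated wildtype array. The strain difference was -2.42 ± 0.10 (adjusted p = 2.1e-07).

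RNR3, the damage-inducible large subunit, read 497, 465 and 434 in wildtype and 118, 107 and 125 in anc1Δ, so that all anc1Δ arrays lay below all wildtype arrays (-1.996 ± 0.10, adjusted p = 5.2e-07). RNR1, the main large subunit, read 891, 773 and 816 against 265, 228 and 293 (-1.66 ± 0.11). Of the small subunits, RNR2 read 3881, 3433 and 3839 in wildtype and 2828, 2862 and 3083 in anc1Δ, and its difference of -0.35 ± 0.09 stayed under the fold limit, as did that of RNR4 (-0.49 ± 0.08), although both were among the markers that MMS raised in wildtype. DUN1, the kinase that relays the checkpoint signal to these genes, read 251, 241 and 209 against 95.7, 93.8 and 91.5, without overlap (-1.32 ± 0.09, adjusted p = 5.5e-06). RFX1, the repressor of the RNR genes, was lower as well (-0.64 ± 0.09).

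The difference between the strain differences (that under MMS minus that without) was called for 542 genes upward (9.58%) and 805 downward (14.2%), and 6 of the 9 reductase genes were among the latter. It came to -2.27 ± 0.16 for RNR3 (adjusted p = 1.5e-06) and -1.94 ± 0.21 for HUG1 (adjusted p = 4.0e-05). Without MMS neither gene was called between the strains. The actin ratio was lower on the untreated arrays of both strains (1.47 to 1.85) than on the treated arrays. The SRB4 ratio lay between 4.66 and 5.91 in untreated wildtype and between 4.50 and 6.28 in untreated anc1Δ. Under MMS it was 16.1 to 19.3 in wildtype and 9.74 to 11.8 in anc1Δ, so that the strains separated only under MMS. The part of either ratio in differences between the states was not tested. Of the 11 MMS marker genes, which include these, 6 had a lower strain difference under MMS than without, 2 were lower in anc1Δ under MMS and 1 was higher. MAG1 read 399.8, 388 and 399 in anc1Δ under MMS, a difference from wildtype of -0.29 ± 0.08, under the fold limit. DDI1, DDR48, UBI4 and SNQ2 likewise did not pass, with strain differences of -0.12, 0.06, -0.07 and 0.15. The marker that was higher in anc1Δ was RPN4, the activator of proteasome genes (0.66 ± 0.08, adjusted p = 1.5e-04), which differed more without MMS (1.38 ± 0.19).

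Of 15 checkpoint genes, 4 were lower in anc1Δ under MMS (26.7%, against 18.4% of all genes) and none was higher. They were DUN1, the effector kinase gene RAD53 (-0.93 ± 0.12), MEC3, part of the 9-1-1 clamp (-0.65 ± 0.09), and LCD1, the partner of Mec1 (-0.60 ± 0.09). RAD53 read 115, 105 and 106 in wildtype and 64.5, 47.1 and 61.2 in anc1Δ, without overlap. With arrays centred on their medians, or after quantile normalization, 2 of the 15 were called. Lower genes over the whole array then numbered 674 and 879, against 1042 as reported. MEC1 differed by -0.05 ± 0.10 and RAD9 by -0.17 ± 0.15, and neither passed.

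Of the 12 postreplication repair genes, 4 were lower in anc1Δ under MMS (33.3%, against 18.4% of all genes). The other 8 did not pass, none was higher, and the median was -0.25, against -0.18 over all genes. POL30, which encodes PCNA, read 802, 783 and 736 in wildtype and 391, 330.0 and 392 in anc1Δ. All 3 anc1Δ arrays lay well below the wildtype arrays (-1.06 ± 0.10, adjusted p = 2.3e-05), and without MMS the difference was of the same size (-1.03 ± 0.14). RAD5, the ligase and helicase of the error-free branch, read 226, 208 and 204 against 129, 135 and 131 (-0.69 ± 0.08, adjusted p = 1.0e-04).

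RAD30, the gene for polymerase eta, read 38.1, 35.8 and 31.7 in wildtype and 20.2, 20.3 and 19.0 in anc1Δ, without overlap (-0.82 ± 0.09). REV7, a subunit of polymerase zeta, was dim in both strains, with 10.7, 13.0 and 10.5 in wildtype and 8.31, 7.04 and 7.1 in anc1Δ (-0.61 ± 0.11). The others stayed under a limit. RAD6 differed by -0.25 ± 0.09, RAD18 by -0.18 ± 0.09, UBC13 by 0.19 ± 0.09, SRS2 by 0.10 ± 0.11, REV1 by -0.24 ± 0.10, REV3 by -0.19 ± 0.14 and POL32 by -0.42 ± 0.13. MMS2, the partner of Ubc13, read 516, 545 and 557 in wildtype and 730.4, 682 and 759 in anc1Δ, without overlap but under the fold limit (0.42 ± 0.08). For none of the 12 did limma call a difference of the strain difference between the states, although 3 passed at an unadjusted p under 0.05 and 1 at the adjusted p alone. With the arrays centred on their medians, or without the dimmest 25% of probe sets, 2 of the 12 were called. Over all genes, 674 and 1009 were lower under these settings, against 1042 as reported.

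**Figure D2:**
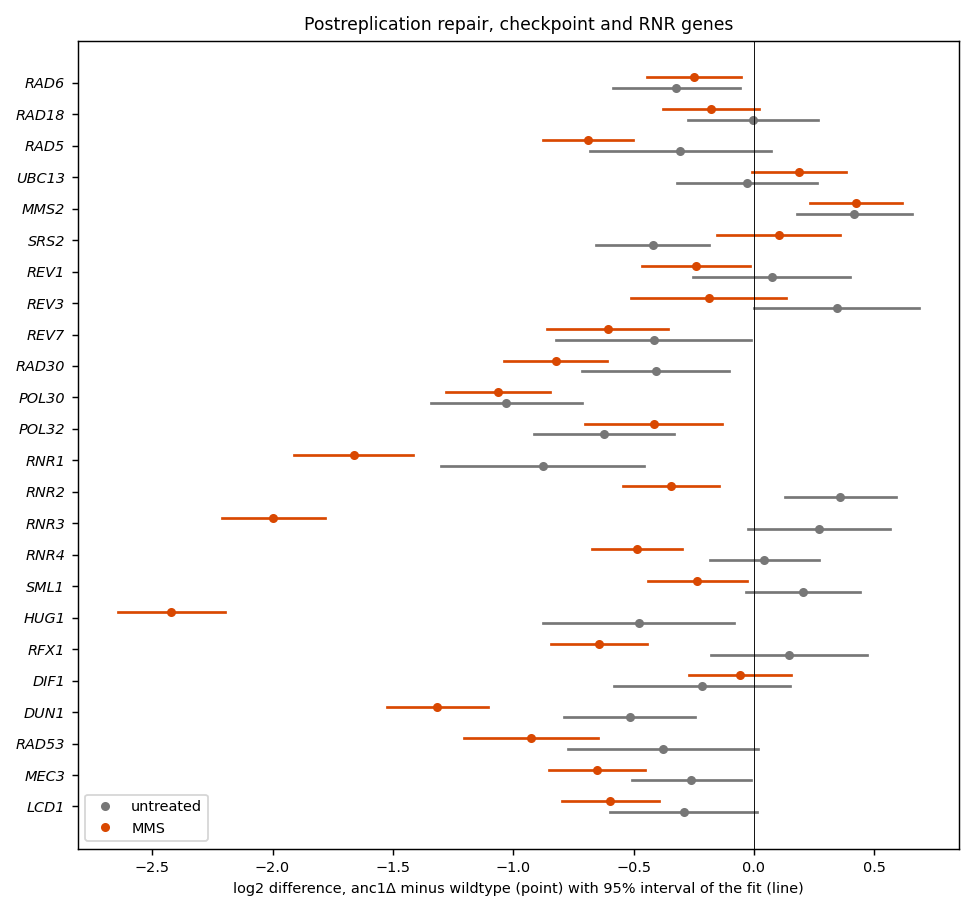
Log2 strain difference (anc1Δ minus wildtype, x axis) of postreplication repair genes, ribonucleotide reductase genes and checkpoint genes, with MMS and untreated. Points are fitted differences and lines their 95% intervals. HUG1 and RNR3 separate most between the states, while the POL30 intervals overlap.

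Shares of lower calls varied between the other repair pathways. Of 13 homologous recombination genes 1 was called lower (7.69%, against 18.4% of all genes), namely RAD52 (737, 741 and 684 against 438, 395 and 425, -0.78 ± 0.08). In base excision repair 3 of 10 were lower (30%), among them the AP endonuclease gene APN1 (-0.67 ± 0.09), and in nucleotide excision repair 3 of 14 (21.4%, near the share of all genes), among them RAD7 of the damage recognition complex (-0.86 ± 0.09). With the arrays centred on their medians, 1 of the 10 base excision genes was called. Of 33 proteasome genes 3 were lower (9.09%, below the 18.4% of all genes), led by the ATPase RPT1 (-0.78 ± 0.08), and 1 with the arrays centred on their medians. Their median of -0.25 stood beside -0.18 over all genes.

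Amino acid synthesis was lower in anc1Δ under MMS across 5 pathways. In arginine synthesis 6 of 8 genes were lower, none was higher, the median was -1.38, and the strain difference itself changed downward for 7. ARG1, argininosuccinate synthetase, read 2540.1, 2697 and 2763 in wildtype and 620.2, 517 and 505 in anc1Δ under MMS (-2.29 ± 0.10, adjusted p = 3.3e-07). Without MMS the order was turned, with 482, 544 and 503 in wildtype and 1272, 1239 and 1270.2 in anc1Δ, and the strains overlapped in neither state. The difference between the strain differences was -3.60 ± 0.14 (adjusted p = 1.5e-08).

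ARG3, ornithine carbamoyltransferase, turned in the same way. It read 311, 324 and 295 against 157, 154 and 168 under MMS (-0.96 ± 0.08) and 26.5, 26.3 and 30.0 against 116, 83.5 and 135 without it (1.99 ± 0.18). ARG4, argininosuccinate lyase, read 5833, 6588 and 6099 in wildtype under MMS and 1135, 1257 and 1282 in anc1Δ (-2.33 ± 0.09), where the untreated wildtype arrays read 1256, 1136 and 1048. ARG7, a mitochondrial enzyme of the ornithine cycle, was lower as well (-1.96 ± 0.08), as was ORT1, the ornithine carrier (-1.73 ± 0.09). Over all genes, 22 were higher in anc1Δ without MMS and lower under MMS, and for all 22 the difference between the states was called.

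In aromatic amino acid synthesis and breakdown 14 of 15 genes were lower (median -1.32), and 11 of the 15 had a lower strain difference under MMS than without. ARO1, the pentafunctional enzyme of the shikimate pathway, read 3660.1, 3887 and 3703 in wildtype and 1145, 1148 and 1217 in anc1Δ (-1.68 ± 0.08), but differed by 0.08 ± 0.10 without MMS. ARO10, the phenylpyruvate decarboxylase, read 1154, 1288 and 1052 against 130.2, 108 and 137, 9.34-fold lower in anc1Δ. Of 6 histidine synthesis genes 5 were lower (median -1.52), led by the trifunctional HIS4, which read 4684, 4305 and 4741 in wildtype and 782, 699 and 807 in anc1Δ (-2.59 ± 0.09, adjusted p = 1.1e-07). Branched-chain synthesis had 8 of 10 lower (median -0.95), among them BAT2, the cytosolic transaminase (-1.69 ± 0.08), and lysine synthesis 6 of 8 (median -0.88), among them LYS1, saccharopine dehydrogenase (-2.10 ± 0.09). The aminoacyl-tRNA synthetases had 8 of 18 lower, and 5 with the arrays centred on their medians. The mRNA of GCN4, the activator of these pathways, differed by 0.00 ± 0.08 on these arrays. Its value was looked up after those of the pathway genes were seen. The amount and activity of the Gcn4 protein were not measured.

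Genes for phosphate uptake and storage held the largest fall among the called genes. Of 14 measured, 12 were lower in anc1Δ under MMS and none was higher (median -2.06). SPL2, a small regulator of phosphate transport, read 1307, 1339.8 and 1204 in wildtype and 21.0, 20.9 and 20.5 in anc1Δ, which is 61.6-fold (-5.95 ± 0.08, adjusted p = 3.1e-10). The anc1Δ values lay among the dimmest 25% of probe sets. PHO84, the high-affinity phosphate transporter, read 6561, 6263 and 6708 against 768, 648 and 681 (-3.22 ± 0.09), and PHO5, the secreted acid phosphatase, 819, 722 and 681 against 74.4, 74.9 and 92.5 (-3.20 ± 0.11). PHO89, the sodium-coupled phosphate transporter (-3.83 ± 0.19), and VTC3, a subunit of the polyphosphate polymerase, were lower as well (-3.13 ± 0.08 for VTC3). Of the 14 genes 11 were also lower without MMS. PHM8, a nucleotidase, turned between the states, with 1094, 1257 and 1247 in wildtype and 390.5, 344 and 413 in anc1Δ under MMS, but 259.7, 240.4 and 188 and 361, 294 and 497 without it.

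The a-specific genes, which mark the mating type of both strains, were lower in anc1Δ in all 7 cases (median -2.86). STE2, the alpha-factor receptor, read 869, 1025 and 891 in wildtype and 85.8, 88.1 and 98.3 in anc1Δ (-3.35 ± 0.10), and MFA1, a gene for the a-factor pheromone, 3856, 3979 and 4457 and 535, 564 and 594. BAR1, the protease that degrades alpha-factor, fell by the most (-3.55 ± 0.10), and STE6, the a-factor exporter, was also lower (-2.88 ± 0.10). For none of the 7 did limma call a change of the strain difference with MMS (1 passed at an unadjusted p under 0.05, and 1 at the adjusted p alone). The summed intensity of these genes lay between 12023 and 13467 in wildtype and between 2305 and 2473 in anc1Δ, and that of the 4 alpha-specific genes between 251 and 274 in wildtype and between 176 and 182 in anc1Δ. Of these 4, MF(ALPHA)2 was higher (0.88 ± 0.12) and SAG1 lower (-0.83 ± 0.09). After quantile normalization none of the 4 was higher and 2 were lower. In each strain under MMS, 3 of the 4 lay among the dimmest 25% of probe sets. Of 9 haploid-specific genes 5 were lower (55.6%, against 18.4% of all genes) and none was higher. In the pheromone response, a list that shares some of them, 16 of 22 genes were lower and none was higher. AGA1, the anchor of the a-agglutinin, read 727, 721 and 739.9 against 51.2, 43.2 and 46.5 (-3.96 ± 0.09), and FAR1, which arrests the cycle in response to pheromone, 126, 135 and 126 against 19.1, 22.4 and 20.3 (-2.65 ± 0.09). GPA1, the alpha subunit of the pheromone G protein, was lower too (-2.37 ± 0.09), as was the kinase FUS3 (-1.26 ± 0.11). Other probe sets of FUS3 differed by -0.07, which did not pass, and by -1.53.

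**Figure D3:**
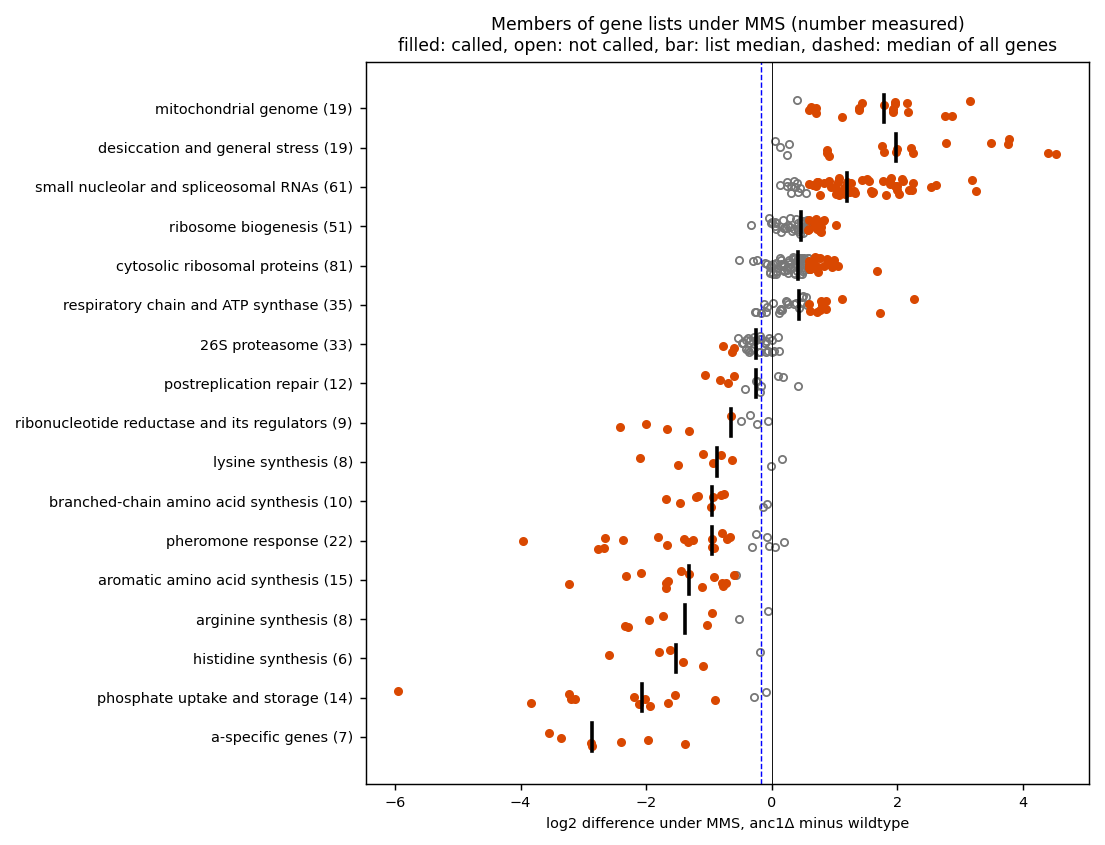
Log2 difference under MMS (anc1Δ minus wildtype, x axis) of each measured member of 17 gene lists, with the number of members in brackets. Filled points were called, open points were not, bars are list medians and the dashed line is the median of all genes at -0.18.

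Of all lists, genes of desiccation and general stress had the highest median (1.98), with 15 of 19 higher in anc1Δ under MMS and none lower. GRE1, a hydrophilin, read 72.3, 69.5 and 63.8 in wildtype and 1594, 1458 and 1730.1 in anc1Δ (4.54 ± 0.10, adjusted p = 7.6e-09). CTT1, the cytosolic catalase, read 111, 119 and 113 against 1518, 1772 and 1386 (3.76 ± 0.10), and TKL2, a transketolase, 80.1, 72.1 and 79.9 against 1086, 1082 and 1027 (3.78 ± 0.08). These genes were among the largest rises, which were picked from genes whose strains did not overlap. For RCK1, a protein kinase of the oxidative stress response, the wildtype arrays themselves spread, with 61.3, 25.7 and 16.0 against 837, 514 and 554 in anc1Δ (4.40 ± 0.41).

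The strain difference of these stress genes was smaller under MMS than without it for 14 of the 19, and for 13 without wildtype untreated replicate 3, an array that stood low for several stress genes. HSP12, a membrane heat shock protein, illustrates this, with a strain difference of 0.28 ± 0.08 under MMS, under the fold limit, and of 1.69 ± 0.17 without. Heat shock genes had 7 of 25 higher under MMS and 16 of 25 without. SSA4, an inducible HSP70, read 3544, 3585 and 3595 in wildtype and 6822, 7119.8 and 7156 in anc1Δ under MMS, against 426, 318 and 319 and 2336, 2368 and 2544 without. Trehalose and glycogen genes had 1 of 17 higher and 5 lower under MMS, where without MMS 11 were higher. GSY1, a glycogen synthase, read 394, 279.7 and 220.5 against 56.5, 59.5 and 60.5 under MMS (-2.30 ± 0.18).

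Part of the ribosome genes were higher in anc1Δ under MMS. Of 81 cytosolic ribosomal protein genes 21 were higher under MMS and none was lower (median 0.41), whereas without MMS none was higher and 9 were lower. The strain difference was higher under MMS than without for 42 of the 81. RPS14B, a protein of the small subunit, read 332, 286 and 294 in wildtype and 596, 630.0 and 663 in anc1Δ under MMS, and 1001, 968 and 1173 and 811, 856 and 862 without. Both strains read lower under MMS than without, and anc1Δ stood above wildtype only under MMS. Of 51 ribosome biogenesis genes 15 were higher (27 with arrays centred on their medians, 25 after quantile normalization) and none was lower, and for 31 the strain difference rose with MMS. NOP56, a protein of box C/D particles, read 348, 286 and 309.5 against 506, 576 and 519.8 (0.77 ± 0.10). Paralogous ribosomal protein genes are nearly alike in sequence, so a probe set may read both copies.

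Cell cycle genes gave a mixed picture. Of 25 G1/S genes 13 were lower in anc1Δ under MMS (52%, against 18.4% of all genes) and 2 were higher (8%, against 11%). CLN2, a G1 cyclin, was one of the latter, with 65.2, 61.9 and 63.6 in wildtype and 195, 179 and 213 in anc1Δ (1.62 ± 0.09), and the repressor gene YOX1 the other (0.81 ± 0.10). MCD1, a cohesin subunit, was among the lower ones (-1.40 ± 0.09). Of 14 G2/M genes 3 were lower (21.4%, near the share of all genes), and the median was -0.22, against -0.18 over all genes. They were CDC20, the activator of the anaphase promoting complex (-1.37 ± 0.09), the cyclin gene CLB1 (-1.05 ± 0.09) and MYO1 (-0.75 ± 0.11). Most other probe sets of MYO1 had the opposite sign, and the mean of all its probe sets differed by 0.12. In these bulk samples, fewer cells in a cycle phase and less RNA per cell cannot be told apart.

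Respiratory genes of the nucleus were higher in anc1Δ for 12 of 35 and lower for none (median 0.43). CYC1, cytochrome c, read 18.7, 20.3 and 21.1 in wildtype and 77.1, 104 and 109.8 in anc1Δ under MMS, against 440.2, 539.9 and 545 in untreated wildtype, with a strain difference of 2.26 ± 0.13. Without MMS the strains overlapped (-0.10 ± 0.12), and the difference between the states was 2.36 ± 0.19. NDE1, a mitochondrial NADH dehydrogenase, was higher in both states (1.72 under MMS and 1.00 without). In pyrimidine synthesis 4 of 10 were higher and 1 was lower, the former led by URA1, dihydroorotate dehydrogenase (259.6, 245 and 244 against 1208, 1276 and 1173, 2.29 ± 0.08).

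Other genes among the largest changes were of varied function. SPS100, a spore wall protein gene, read 352, 336 and 346 in wildtype and 3701, 3987 and 4027 in anc1Δ (3.50 ± 0.08), and SSA3, an inducible HSP70, 302, 297 and 294 against 1999, 2090.1 and 2072 (2.79 ± 0.08). HPF1, a cell wall mannoprotein, read 339, 277 and 261 against 3302, 2895 and 3516 (3.47 ± 0.12). FMP48 (3.47), YFL067W (3.12), YBR219C (2.87) and YDL218W (3.86) were also among the largest rises. These rises were picked from genes whose strains did not overlap, so their lack of overlap follows from the choice. Among the falls, SDT1, a pyrimidine nucleotidase, read 1584, 1526 and 1259.9 in wildtype and 183, 163 and 202 in anc1Δ (-2.99 ± 0.12). ADH5, an alcohol dehydrogenase, read 429.9, 365 and 332 against 43.8, 56.0 and 52.3 (-2.89 ± 0.13), and its strain difference was also lower under MMS than without (-1.85 ± 0.23).

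Carbon metabolism was divided, where over all genes 11% were higher and 18.4% lower. Of 20 diauxic shift and gluconeogenesis genes 7 were higher in anc1Δ under MMS and none was lower. MDH2, the cytosolic malate dehydrogenase, read 414, 373 and 336 in wildtype and 1671, 1542 and 1605 in anc1Δ (2.11 ± 0.10), and FBP1, fructose bisphosphatase, differed by 1.70 ± 0.12. In glycolysis and fermentation 7 of 20 were lower and none was higher. PFK1, a subunit of phosphofructokinase, read 1581, 1484 and 1286 against 705, 647 and 798 (-1.02 ± 0.11), and GPD2, glycerol phosphate dehydrogenase, differed by -1.08 ± 0.10. Of 13 TCA cycle genes 4 were lower, among them LPD1 (-0.79 ± 0.11), the lipoamide dehydrogenase, while the aconitase gene ACO1 was the 1 that was higher (0.67 ± 0.09).

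Oxidant defence genes were higher in 9 of 25 cases (36%, against 11% of all genes) and lower in 2 (8%, against 18.4%). SOD2, the mitochondrial superoxide dismutase, read 1984, 1895 and 1737 in wildtype and 4819, 4713 and 5069 in anc1Δ (1.38 ± 0.09). GTT2, a glutathione transferase, differed by 1.33 ± 0.09. Of 12 oxidoreductases of electrophile stress 4 were higher and 1 was lower, the former led by AAD6, an aryl-alcohol dehydrogenase (1.85 ± 0.09). The strains differed at AAD6 only under MMS (0.28 without, with a difference between the states of 1.57 ± 0.21).

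Metal and membrane genes were called in both directions, as were all genes (11% higher and 18.4% lower). Of 22 iron uptake genes 4 were higher (18.2%) and 8 lower (36.4%). FIT2, a cell wall mannoprotein that retains iron, read 1529, 1307 and 1289 in wildtype and 3152, 2898 and 3538 in anc1Δ (1.22 ± 0.11), and TIS11, which degrades mRNAs of iron-using proteins, 945, 1094 and 864 against 419.9, 335 and 404 (-1.33 ± 0.12). ZRT1, the high-affinity zinc transporter, was lower (-1.33 ± 0.10), while its other probe sets differed by -0.24, which did not pass, -1.02 and -1.11. In ergosterol synthesis 3 of 23 were higher (13.0%, near the share of all genes) and 6 lower (26.1%). ERG11, the lanosterol demethylase, was among the former (0.92 ± 0.10). OLE1, the fatty acid desaturase, read 448, 393 and 356 against 921, 850.3 and 847 (1.14 ± 0.10). Of 17 drug efflux genes 2 were higher (11.8%, near the share of all genes) and 6 lower (35.3%). The regulator PDR1 was among the lower ones (-1.41 ± 0.08), and the transporter FLR1 was higher (1.37 ± 0.08).

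Genes of autophagy were lower for 5 of 17 (29.4%, against 18.4% of all genes) and higher for none. For 8 of the 17 the strain difference was lower under MMS than without. ATG1, the kinase that starts autophagy, read 192, 171 and 144 in wildtype and 86.2, 87.8 and 89.8 in anc1Δ (-0.93 ± 0.11). In nitrogen catabolite genes 5 of 20 were higher and 5 lower (5 and 3 with the arrays centred on their medians). GAP1, the general amino acid permease, read 121, 122 and 120.1 against 309.7, 290.1 and 301 (1.31 ± 0.08). In sulfate assimilation and methionine synthesis 2 of 23 were higher (8.70%) and 6 lower (26.1%), beside 11% and 18.4% of all genes. MET16, the PAPS reductase, was among the lower ones (-1.36 ± 0.10). Purine synthesis had 4 of 17 lower under MMS (23.5%, against 18.4% of all genes). With the arrays centred on their medians 1 was lower, and without wildtype MMS replicate 1 there were 2. Without MMS 13 of 17 were lower, and the strain difference of 8 was higher under MMS than without.

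Calls of the other lists under MMS are given next, beside 11% higher and 18.4% lower over all genes. Among cell cycle genes, 5 of 16 M/G1 genes were higher and 4 lower (9 and 1 with the arrays centred on their medians), with EGT2, a daughter cell wall protein gene, among the former (1.85 ± 0.10) and MCM3, a replicative helicase subunit gene, among the latter (-1.32 ± 0.10). Of 9 Start regulators 3 were lower, among them the G1 cyclin gene CLN3 (-0.77 ± 0.12), and of 4 measured histone genes 2, among them HHO1 for the linker histone (-0.87 ± 0.08). Cell wall protein genes had 5 of 24 higher and 8 lower (6 and 5 with the arrays centred on their medians), and heme- and oxygen-regulated genes 4 of 16 higher and none lower. ANB1, a translation factor gene repressed by oxygen, read 30.7, 27.7 and 32.8 in wildtype and 49.2, 50.2 and 53.4 in anc1Δ under MMS, and 333, 322 and 379 and 158, 185 and 170.4 without, so that the order of the strains turned. ER chaperone genes had 3 of 17 lower (17.6%, near the 18.4% of all genes), and mitochondrial ribosomal protein genes 1 of 67 higher and 4 lower (none lower with the arrays centred on their medians). None of 18 meiosis genes was called by limma and 1 by the LPE test, while 9 passed at an unadjusted p under 0.05. None of 10 seripauperin genes was called by either test, and 4 passed at an unadjusted p under 0.05. Hexose transporters had 3 of 15 higher (20%, 5 genes with the arrays centred on their medians) and none lower. Copper and zinc genes had 1 of 10 higher and 3 lower (30%). Of 15 phospholipid synthesis genes 2 were lower (13.3%) and none higher, and with the arrays centred 1 was lower and 1 higher. Of 19 RNA polymerase I and III genes 1 was higher (5.26%) and none lower.

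Calls for the mRNA of subunits of the complexes that contain Anc1 are given beside 11% higher and 18.4% lower over all genes. None of 14 TFIID genes was called by limma or by the local-pooled-error (LPE) test, although 9 passed at the adjusted p alone and 9 at an unadjusted p under 0.05, with differences from -0.48 to 0.33. Of 2 TFIIF genes measured besides ANC1 none was called by either test and none passed at an unadjusted p under 0.05. In RSC 5 of 16 were lower (31.3%, against 18.4% of all genes) and 1 was higher. In SWI/SNF 2 of 11 were lower (18.2%) and 1 was higher (9.09%), near the shares of all genes. With the arrays centred on their medians 2 were lower and 2 higher. In INO80 1 of 14 was lower (7.14%) and in NuA3 1 of 4 (25%). ARP7, an actin-related subunit of RSC and SWI/SNF, read 323, 283 and 303 against 132, 137 and 144 (-1.14 ± 0.09). ARP4, a subunit of INO80 and NuA4, read 315, 332 and 310.3 against 128, 127 and 128 (-1.32 ± 0.08). Of 25 Mediator genes SRB2 was higher (1.08 ± 0.08) and SRB4 lower (-0.61 ± 0.08), which is 4% in each direction. SRB4 is the gene whose 3′ and 5′ controls also differed between the strains. With the arrays centred on their medians SRB4 was no longer called.

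RNAs that mostly lack a poly(A) tail were higher in anc1Δ under MMS, a set put together after the values were seen. Of 61 small nucleolar and spliceosomal RNAs 50 were higher and none was lower (median 1.19), and an array's median over these RNAs was 29.6 to 38.7 in wildtype and 91.7 to 96.7 in anc1Δ. SNR128, a box C/D RNA, read 123, 119 and 134 in wildtype and 1217, 1249 and 1138 in anc1Δ (3.26 ± 0.09, adjusted p = 2.2e-08). Without MMS 22 of the 61 were higher. Of the 19 genes of the mitochondrial genome 18 were higher (11 without the dimmest 25% of probe sets), with a median of 1.80. Without MMS 17 were higher (median 1.46), and the difference between the states was called for 1. COX3, a subunit of cytochrome oxidase, read 79.8, 94.0 and 137 in wildtype, with replicate 3 the highest, and 935, 848 and 912 in anc1Δ.

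**Figure D4:**
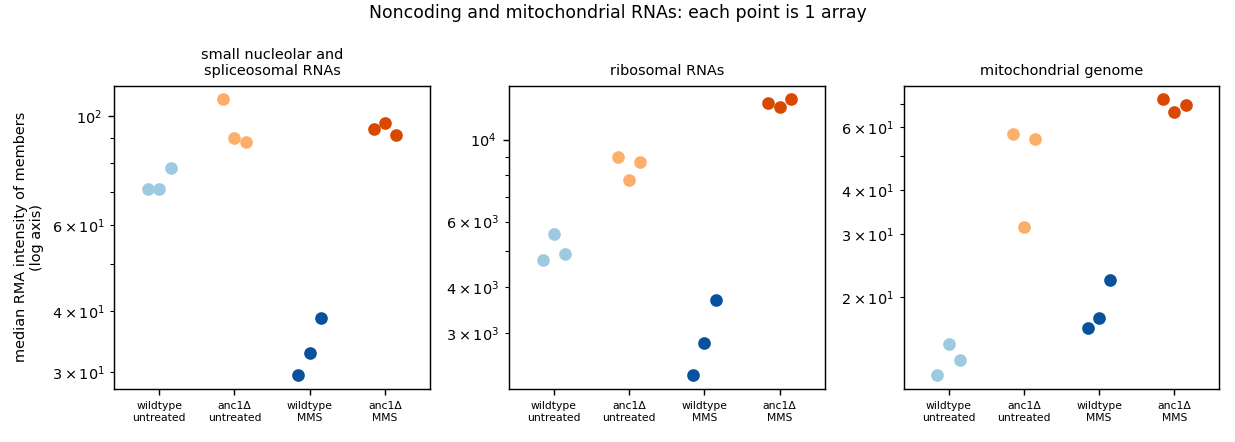
Median RMA intensity (log axis) of 61 small nucleolar and spliceosomal RNAs, 5 ribosomal RNAs and 19 mitochondrial genes on each array, in 4 groups of 3. Each point is an array. In all 3 panels the anc1Δ MMS arrays lie above the wildtype MMS arrays without overlap.

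Of 5 ribosomal RNA genes on the array 4 were higher under MMS, and RDN25-1, the large subunit RNA, read 2311, 2823 and 3691 in wildtype and 16079, 15875 and 13781 in anc1Δ (2.40 ± 0.16). Among the wildtype arrays replicate 3 was the highest, and no anc1Δ array overlapped them. The 5 control probe sets for 25S rRNA differed by 0.31 to 2.61, so the size of the difference depends on the probe set. The ratio of the SRB4 control given above also differed between the strains, and the part of RNA quality or of labelling in their difference was not tested.

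Across genes, the strain difference under MMS followed that without MMS with Pearson's r of 0.63 and Spearman's rho of 0.51 over 5656 genes, which are not independent replicates. Of the genes higher under MMS 50% were also higher without it (311 genes, 49.4% of those higher without MMS). Of the genes lower under MMS 32.4% were also lower without it (338 genes, 48.4% of those lower without MMS). Of the 682 genes called lower only under MMS the difference between the states was called for 305, and of the 305 called higher only under MMS for 186, so the remainder were not shown to differ between the states.

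**Figure D5:**
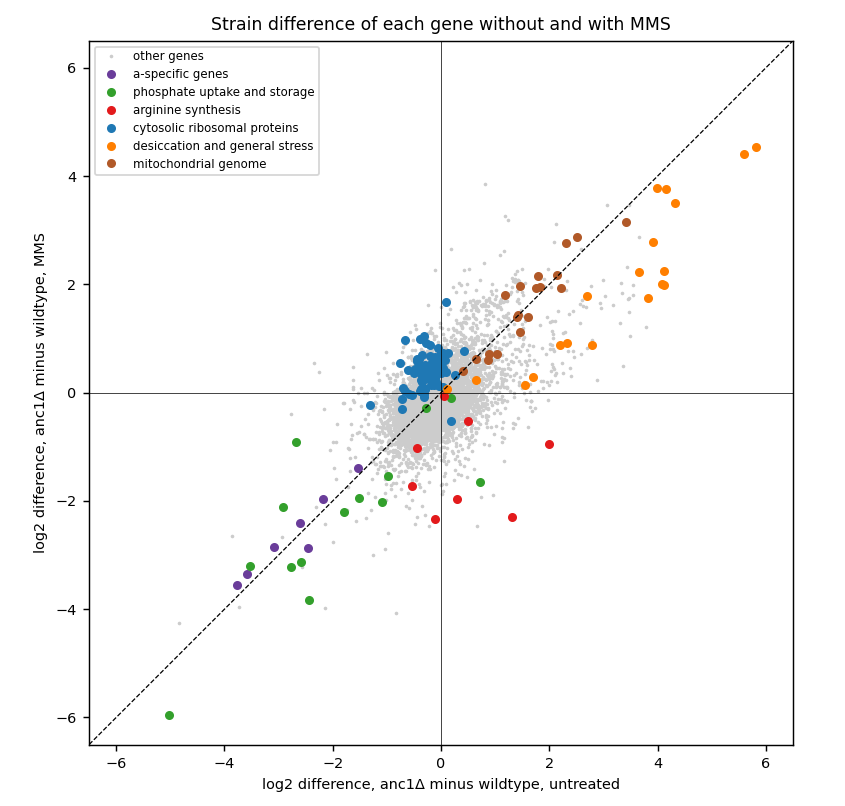
Log2 strain difference (anc1Δ minus wildtype) of 5656 genes without MMS (x axis) and under MMS (y axis). The dashed line marks equal differences, grey points are genes outside the 6 coloured lists. The a-specific genes lie along the line, 80 of the 81 ribosomal protein genes above it, and the arginine and stress genes below it.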

How the data were processed

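Labelled RNA of both strains, untreated or under MMS, was read on 12 Affymetrix YG-S98 arrays, 3 in each of 4 groups. Each of the 9335 probe sets has a deposited intensity on a linear scale, which the authors obtained with RMA. Neither the RMA version nor which arrays shared a normalization was given. After removal of 60 control probe sets, log2 was taken. Of the 9275 tested, 328 named several genes and 2443 none. The brightest probe set stood for the 315 genes with several.

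Groups were compared with limma 3.58.1 (lmFit, eBayes) in R 4.3.3, on the 6 arrays of a state for each strain difference and on all 12 for the difference between them, after a check on simulated data. The alternatives were leaving out each array, a replicate block, all 12 arrays, median centring, quantile normalization, dropping the dimmest 25% of probe sets, an intensity trend, the LPE test with 100 bins, other fold limits and averaging all probe sets of a gene. Named genes were ANC1, strain markers and postreplication repair genes. To these came the 15 largest rises and falls under MMS among called genes whose strains did not overlap. Their lack of overlap was thus fixed by the choice. Up to 4 called members of each of 61 lists were added by smallest p. The 8 largest differences between states in each direction were taken among called genes. Other genes named, and 5 further lists, were chosen after their values were seen. Members and lists were chosen with earlier results of these data known.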

Additional observations from a re-analysis of the deposited data

Results flagged for a closer look

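The strain difference under MMS differed from that without MMS, by the interaction contrast, for 542 genes upward and 805 downward. The largest upward differences on the log2 scale were those of YDL218W (3.04), RDN18-1 (2.90), HO (2.63), OSI1 (2.46), CYC1 (2.36), IZH4 (2.36), SFG1 (2.09) and SNR128 (2.09). For HO, the mating-type endonuclease gene, the wildtype arrays read 183, 249 and 376 without MMS and 33.8, 32.6 and 36.0 with it, while anc1Δ read 51.6, 60.2 and 50.8 and 39.4, 46.9 and 46.7. OSI1 read 395, 338 and 337 in wildtype and 2399, 2284 and 2009 in anc1Δ under MMS, and 29.6, 35.6 and 33.8 and 37.0, 38.7 and 36.5 without. For RDN18-1 the strains overlapped under MMS (32.6, 41.6 and 35.3 against 73.1, 55.3 and 37.7).

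The largest downward differences were those of ARG1 (-3.60), ARO5 (-3.25), YNR068C (-3.12), ARG3 (-2.95), PIR3 (-2.86), TMT1 (-2.86), BOP2 (-2.66) and GCY1 (-2.64). ARO5 read 407, 416 and 391 in wildtype and 21.9, 22.8 and 27.6 in anc1Δ under MMS, and 82.4, 90.2 and 62.4 and 36.4, 42.3 and 53.8 without. GCY1 did not pass between the strains under MMS (0.24 ± 0.10).

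Outside the comparison of genes, 792 of 2443 probe sets that name no gene were called under MMS, which is 32.4%. This is near the share of all genes called (29.4%), and of all 9275 probe sets 2807 were called. A control probe set for 25S rRNA, which stands outside the tests above, was higher in anc1Δ by 2.61 on the log2 scale, with 2874 to 3336 on the wildtype arrays and 17557 to 19577 on the anc1Δ arrays. It was the largest difference of 10 such rRNA controls. The brightest other one for 25S rRNA differed by 0.31 (9301 to 9781 against 10799 to 12870), the remaining ones for 25S by 0.67 to 1.18, and those for 18S by 0.50 to 0.73, of which 2 of 5 did not pass the adjusted p.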

How the results depend on the processing

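Under MMS, leaving out each array in turn gave 585 to 620 higher and 975 to 1158 lower genes. Without MMS the ranges were 586 to 684 and 659 to 828, and for the difference between the strain differences 469 to 592 and 714 to 896. With each array centred on its median 674 genes were lower under MMS, all among the 1042. Without a fold limit 1182 genes were higher and 2456 lower under MMS, 977 and 1556 without MMS, and 1224 had a downward difference between the states. With a limit of 2-fold the counts were 298 and 268 under MMS, 309 and 166 without, and 155 and 285 for the difference. The LPE test gave 631 and 1079 under MMS. Replicate numbers did not pair the samples, since same-numbered deviations of the treated arrays correlated with 0.14, -0.02 and -0.13, and the replicate block gave 623 and 1043 genes.

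For the 221 genes named by rule under MMS, 3352 values kept direction and call, 152 lost the call, 20 gained it and 5 changed sign. MET17, at 0.08, ranged from -0.018 to 0.21 with 1 array left out, falling below 0 without wildtype MMS replicate 1 and without anc1 MMS replicate 3 (-0.0091), and came to -0.15 after quantile normalization. With all probe sets of a gene averaged, MYO1 changed to 0.12 and PDR5 to 0.050. Of the counts in lists, 808 stayed within 1.5 times under an alternative and 88 did not. None of the 16 named differences between the states changed call or sign. Precision is limited by the number of arrays, and genes such as REV7 lie among the dimmest 25% of probe sets.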

Other observations

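Genes of NAD synthesis from tryptophan were lower in anc1Δ under MMS for 5 of 6 measured. BNA1, which makes quinolinate, read 1759.8, 1875 and 1917 in wildtype and 112, 121 and 120.1 in anc1Δ (-3.97 ± 0.08, adjusted p = 7.6e-09), and without MMS 942, 887 and 783 and 191, 206 and 191. BNA5, kynureninase, read 197, 193 and 201 against 42.2, 48.7 and 46.2 (-2.11 ± 0.09), while BNA2, the first enzyme of the path, did not pass (-0.14 ± 0.09). All 4 measured genes of vitamin B6 metabolism were lower. SNZ1, a subunit of pyridoxal phosphate synthase, read 375, 403 and 402 in wildtype and 75.9, 68.0 and 69.2 in anc1Δ under MMS, and 63.8, 57.8 and 63.7 and 47.9, 57.7 and 54.6 without, so that the wildtype arrays under MMS stood apart from the other groups. Both lists were drawn up after the values were seen.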
